A study of Homo sapiens with 4 samples.

Results

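The PTBP and MBNL genes encode 2 families of RNA-binding proteins that decide which exons of other transcripts are kept. Skipped exon events of PTBP1, PTBP2, PTBP3, MBNL1, MBNL2 and MBNL3 were taken by gene symbol from a deposited table of 65601 events. The table held 34 events of these 6 genes, covering 29 exons. Of these, 29 events (26 exons) averaged at least 20 junction reads over the 4 libraries and were tested among 54503 events that did so. A junction read spans a splice junction, and an event is a run of 3 exons whose middle exon can be kept or left out.

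The cells were HEK 293T, a human embryonic kidney line that takes up transfected nucleic acid well. Per the labels, 2 libraries came from cells transfected with 70 nM of a gapmer antisense oligonucleotide (ASO) against SNORD89, a small nucleolar RNA, and 2 from cells with no ASO. A gapmer binds its target RNA, which RNase H then cuts. RNA was taken at 48 h in both groups, and poly(A) mRNA was sequenced. The labels of the cells with no ASO carry the same transfection text, which does not settle whether lipid was added to them, and no control ASO is named. The design asks how depletion of SNORD89 affects splicing. The table holds its libraries as a first and a second set. Its name puts SNORD89 before the cells with no ASO, and it is filed under an ASO sample, but no header or label states which set was treated. Every direction below is therefore the first set against the second. The 2 libraries of a set are named by their place in the table, and these numbers pair nothing. The labels call the samples of a group biological replicates.

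PTBP1 binds pyrimidine-rich RNA and mostly represses exons. PTBP2 is its neuronal relative, and PTBP3 is another paralog. PTBP1 represses inclusion of an exon in its own transcript and of the matching exon of PTBP2, which leaves transcripts that nonsense-mediated decay removes. MBNL proteins bind YGCY motifs with zinc fingers and either include or repress exons depending on where they bind. MBNL1 represses an exon of its own that affects how much of the protein is nuclear. Loss of free MBNL protein on expanded repeat RNA is the basis of myotonic dystrophy.

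The alternative exons described below are printed first, to show which exon of one paralog matches which of another. Letters were read from GENCODE release 29 transcripts matched by exon length and spacing, and all 34 events matched. Positions are those of the table, in hg19 per the submitters' processing notes. All are in coding sequence of the transcripts matched, except in part the MBNL2 exon of 54 nt. Its letters came from a transcript where it is non-coding, while its second event matched a transcript where it is coding. The exon of 34 nt is shared by the 3 PTBP genes, and capitals mark bases that differ from PTBP1.

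PTBP1, chromosome 19, 807869 to 807902, plus strand: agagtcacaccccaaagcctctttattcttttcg

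PTBP2, chromosome 1, 97271975 to 97272008, plus strand: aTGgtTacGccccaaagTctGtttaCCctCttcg

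PTBP3, chromosome 9, 114993660 to 114993693, minus strand: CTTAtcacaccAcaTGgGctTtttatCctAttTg

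PTBP1 and PTBP2 were identical at 25 of the 34 bases (73.5%), PTBP1 and PTBP3 at 22 (64.7%), and PTBP2 and PTBP3 at 21 (61.8%). In the matched transcript of each gene, skipping shifted the reading frame. It then placed a stop codon 24 nt past the exon's place and 361 nt before the last exon junction in all 3. A stop far before the last junction is the feature that nonsense-mediated decay recognises.

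The exon of 78 nt of PTBP1 lies in the linker between RNA-binding domains of the protein. It is shown because it is the deepest alternative exon of the 6 genes, and capitals mark the 21 bases missing from its shorter form of 57 nt.

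PTBP1, chromosome 19, 805492 to 805569, plus strand: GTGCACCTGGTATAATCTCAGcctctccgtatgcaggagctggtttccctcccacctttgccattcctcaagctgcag

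The exons of 54 and 95 nt of MBNL1 and MBNL2 are shown in pairs, with capitals where MBNL2 differs from MBNL1. The pair of 54 nt was identical at 45 bases (83.3%) and the pair of 95 nt at 81 bases (85.3%).

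MBNL1, chromosome 3, 152164493 to 152164546, plus strand: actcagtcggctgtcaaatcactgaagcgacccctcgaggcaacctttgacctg

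MBNL2, chromosome 13, 98009050 to 98009103, plus strand: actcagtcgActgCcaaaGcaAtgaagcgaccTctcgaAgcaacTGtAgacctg

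MBNL1, chromosome 3, 152174056 to 152174150, plus strand: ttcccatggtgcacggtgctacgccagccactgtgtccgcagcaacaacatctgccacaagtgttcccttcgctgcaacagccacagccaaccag

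MBNL2, chromosome 13, 98018713 to 98018807, plus strand: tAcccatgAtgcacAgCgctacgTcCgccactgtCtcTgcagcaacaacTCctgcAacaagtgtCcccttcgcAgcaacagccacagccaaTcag

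Summed over events, the libraries held between 38613055 and 43929373 junction reads. Library 2 of the second set stood apart. It had no reads at 3280 events, against 513 to 624 in the other 3 libraries. Over events with an inclusion share of 0.05 to 0.95, the median chi-square of inclusion between a pair of libraries was 6.41 to 6.50 times its binomial expectation for pairs that include it. It was 2.75 to 2.98 times for the other pairs. Of 7 markers of blood, endothelial, fibroblast, liver and muscle cells, LUM alone had events in the table, at 0.0455 to 0.443 reads per 1000000 junction reads. Markers of 293T cells themselves were not analysed here.

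Most PTBP and MBNL exons were included almost always, and few differed between the sets. The inclusion level is the share of an event's kept form among its kept and skipped forms, from 0 to 1. It is taken after division of reads by the length of each form. A mean level above 0.95 was found at 17 of the 29 events, a level under 0.05 at 2, and a level between these at 10 (34.5%, against 24.6% of all tested events). Calls came from the authors' deposited table, at a false discovery rate (FDR) under 0.05 with a difference in level of at least 0.1. This held for 2 of the 29 events (6.90%), one of PTBP3 and one of MBNL2, beside 2.71% of all tested events. Both were higher in the first set, where 1.34% of all were called higher and 1.37% lower. At any size of difference, 3 of the 29 events (10.3%) had an FDR under 0.05, beside 5.72% of all. Among events with a mean level of 0.05 to 0.95, an FDR under 0.05 with a difference of at least 0.1 held for 2 of the 10 and for 11.0% of all. The difference was under 0.05 in size at 22 of the 29 events (75.9%, against 82.5% of all), as the plot of differences against depth shows.

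A quasi-binomial model, whose error is the scatter from library to library, called 0 of the 29 events and 0% of all tested events after Benjamini-Hochberg adjustment. At an unadjusted p under 0.05 it had 2 of the 29, beside 2.66% of all. Limma with precision weights called 2 of the 29, exons of PTBP1 and MBNL1 and neither of the events called from the authors' table, beside 0.657% of all. The levels of the sets did not overlap at 5 of the 29 events (17.2%), beside 22.8% of all.

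**Figure D1:**
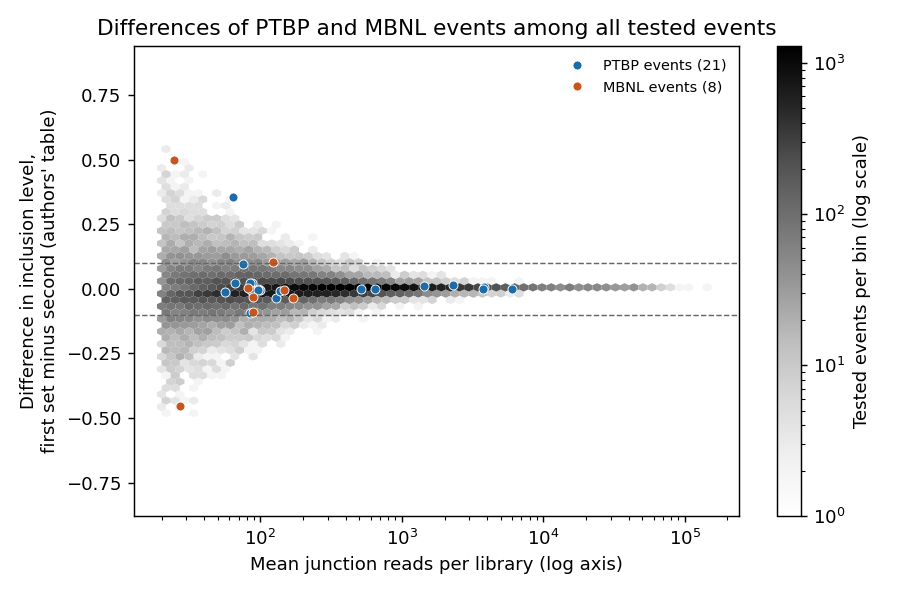
Difference in inclusion level (first set minus second, authors' deposited table) against mean junction reads per library on a log axis, for all 54503 tested events (grey bins), 21 PTBP events (blue) and 8 MBNL events (orange). Dashed lines mark a difference of 0.1 in either direction; the PTBP and MBNL events beyond 0.1 had mean depths of 122.50 reads or fewer.

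PTBP1 had the deepest events, and the difference was at most 0.015 in size at each of its 7 tested events. The exon of 78 nt was read by 4702 and 4245 junction reads in the first set against 2922 and 3435 in the second. Its level was 0.838 and 0.815 in the first set against 0.825 and 0.811 in the second, so the sets overlapped. The difference was 0.008 in the authors' deposited table (FDR = 1). The quasi-binomial interval of the difference, from summed reads, ran from -0.023 to 0.042 (95%), so a shift larger than that was outside the interval.

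The form of 57 nt begins 21 bases later and is compared in the table with the same skipping reads. Each level sets 1 form against skipping alone, so neither level is a share of all PTBP1 transcripts. Its level was 0.614 and 0.578 in the first set against 0.587 and 0.585 in the second. Both forms keep the reading frame. As background, the form without this exon is the weaker repressor of splicing.

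The 3 tested exons of other genes with the most similar levels to the exon of 78 nt over the 4 libraries, by Euclidean distance among 37038 events with at least 100 reads, were in PTP4A2 (0.00986), CDIPT (0.0139) and PILRB (0.0201). This is a description of 4 libraries only.

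The self-regulating exon of 34 nt of PTBP1 was skipped rarely in all 4 libraries. Its level was 0.981 and 0.992 in the first set against 0.986 and 0.99 in the second. Skipping reads numbered 66 and 29 of 4344 and 4207 in the first set, against 36 and 26 of 3153 and 3241 in the second. The difference was -0.002 in the authors' deposited table (FDR = 1), with an interval of -0.011 to 0.008. A second event, which joins the exon to another upstream exon, was at 0.995 or above in every library.

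The exon of 31 nt of PTBP1 (chromosome 19, 799413 to 799443, plus strand) is the second exon of PTBP1-201. Skipping it in that transcript shifts the frame and stops translation 52 nt later. The annotation also holds 1 transcript that skips it, classed as protein coding. This exon falls outside the rule for naming exons by inclusion level and was singled out after its values were seen. Skipping was 0.845% and 0.630% in the first set, against 2.13% and 2.16% in the second, from 21, 13, 30 and 37 skipping reads. Both libraries of the second set lay above both of the first. The authors' deposited table gives a difference in level of 0.015 (FDR = 0.00216), under the size used for a call. The quasi-binomial p was 0.0157 (adjusted p = 0.853), and limma with precision weights gave an adjusted p of 0.0152. That limma call was lost with any library left out, while the difference stayed at 0.013 to 0.015. How many of all limma calls were lost in the same way was not counted, so the loss cannot be read as a trait of this exon. The remaining PTBP1 exons, of 111 and 149 nt, were at 0.997 or above in every library.

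**Figure D2:**
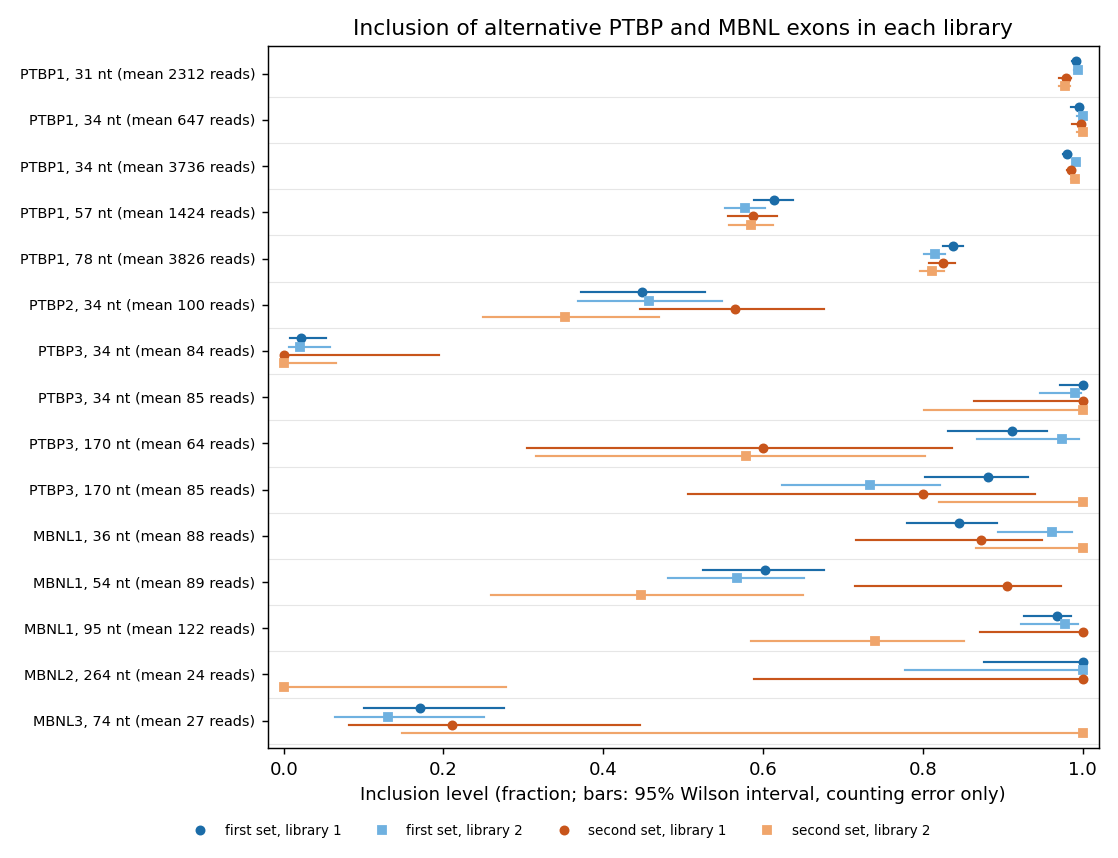
Inclusion level (x axis, fraction) of 15 events of the 6 genes in each library, with 95% Wilson intervals that cover counting error only; blue marks are the first set and orange the second, circles library 1 and squares library 2. PTBP1 levels lie close together in all 4 libraries, while events with few reads in the second set have wide intervals there.

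PTBP2 differed from its paralogs in the level of the exon of 34 nt. The level was 0.449 and 0.457 in the first set against 0.565 and 0.352 in the second, from 150, 114, 70 and 65 reads. The first set lay between the 2 libraries of the second. The difference was -0.005 in the authors' deposited table (FDR = 1), and its interval of -0.211 to 0.197 leaves room for shifts of either sign. The matching exons of PTBP1 and PTBP3 were at 0.981 or above in every library, and all 4 PTBP2 values lay below all of those. The other 5 PTBP2 events had levels of 0.929 or above in each library. Of these, the exon of 165 nt was at 0.981 and 0.946 in the first set against 1 in both libraries of the second (FDR = 0.616 in the authors' deposited table).

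PTBP3 held 1 of the 2 called events. It is the exon of 170 nt on chromosome 9 (115038124 to 115038293, minus strand), coding in PTBP3-204, whose skipping shifts the frame with a stop 20 nt later. The level was 0.912 and 0.974 in the first set against 0.6 and 0.579 in the second, from 152, 76, 12 and 15 reads. The sets did not overlap, and the second set rested on 3 and 4 skipping reads. The difference was 0.354 in the authors' deposited table (FDR = 0.0171), and 0.229 without the correction for form length. The quasi-binomial test gave p = 0.0519 (adjusted p = 0.853), with an interval of -0.065 to 0.753.

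The same exon has a second, deeper event with a flanking splice site 9 nt away, and that event pointed the other way. Its level was 0.882 and 0.734 in the first set against 0.8 and 1 in the second, a difference of -0.092 in the authors' deposited table (FDR = 0.103). With the reads of both events summed, the level was 0.896 and 0.824 in the first set against 0.714 and 0.852 in the second. The summed difference was 0.077, and the sets overlapped. Both events can hold the same inclusion reads from the flank they share, while their skipping reads are distinct. The summed levels can therefore be too high, and they are a description only.

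The exon of 34 nt that matches the PTBP1 switch was at 1 and 0.99 in the first set against 1 in both libraries of the second in PTBP3. A different exon of 34 nt, the second exon of PTBP3-204 (chromosome 9, 115092721 to 115092754, minus strand), was rarely included. Its level was 0.021 and 0.0201 in the first set, from 4 and 3 inclusion reads. In the second set it had 0 inclusion reads of 13 and 45, which allows a level of up to 0.194 and 0.065 by the upper Wilson limit. The exon of 140 nt was at 1 in 3 libraries and at 0.811 in library 2 of the second set. The other 3 PTBP3 events were at 0.972 or above in each library.

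At its exons of 54, 36 and 95 nt, MBNL1 varied more between the libraries of the second set than between the sets. Its self-regulated exon of 54 nt, which keeps the frame, was at 0.603 and 0.568 in the first set against 0.905 and 0.447 in the second, from 172, 134, 28 and 21 reads. The first set lay between the 2 libraries of the second. The difference was -0.091 in the authors' deposited table (FDR = 1), and the interval from summed reads was -0.411 to 0.199.

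The exon of 36 nt of MBNL1 (chromosome 3, 152173331 to 152173366, plus strand) also keeps the frame. Its level was 0.845 and 0.962 in the first set against 0.873 and 1 in the second, with overlap (FDR = 0.596 in the authors' deposited table). The exon of 95 nt changes the carboxy-terminal reading frame. It was at 0.968 and 0.978 in the first set against 1 and 0.740 in the second. Only library 2 of the latter was low, with 9 of its 51 reads skipping. The difference was 0.103 in the authors' deposited table (FDR = 0.108), the quasi-binomial adjusted p was 0.853, and limma with precision weights gave an adjusted p of 0.0452. Without library 2 of the second set the difference was -0.027, and without its library 1 it was 0.232. The limma call was lost with any library left out, and the same loss over all limma calls was not counted. Of the other MBNL1 events, the exons of 204 and 963 nt were at 0.929 or above in each library and that of 64 nt at 0.00739 or below.

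MBNL2 held the other called event, the exon of 264 nt (chromosome 13, 97999058 to 97999321, plus strand), which keeps the frame. Its level was 1 and 1 in the first set against 1 and 0 in the second, from 55, 27, 11 and 5 reads. The first library of the second set equalled the first set, and the call rested on the 5 reads of library 2. The difference was 0.5 in the authors' deposited table (FDR = 0.0402), the quasi-binomial adjusted p was 0.853, and without that library the difference was 0. With a mean of 24.50 reads this was the shallowest event above the minimum, and the deepest below it had 18.25.

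The 54-nt and 95-nt exons of MBNL2 were below the minimum, so they were not tested. The exon of 95 nt was at 0.588 and 0.588 in the first set against 1 and 1 in the second, from 40, 10, 7 and 5 reads. The exon of 54 nt was at 0.223 and 0.145 in the first set against 0.478 and 1 in the second, from 32, 16, 9 and 8 reads. Both had an FDR under 0.05 in the authors' deposited table (0.00093 and 0.0291), with 5 and 8 reads in the shallowest library. The other events below it were a second event of the MBNL2 exon of 54 nt (4.25 reads), a second event of the PTBP1 exon of 31 nt (5.00 reads) and the MBNL3 exon of 138 nt (18.25 reads, FDR = 0.0143).

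MBNL3 had 1 tested event, the exon of 74 nt (chromosome X, 131515387 to 131515460). Its level was 0.171 and 0.131 in the first set against 0.211 and 1 in the second, from 55, 38, 14 and 1 reads. The value of 1 came from a single read. The difference was -0.455 in the authors' deposited table (FDR = 1).

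Libraries of the second set differed from each other by 0.2 or more in level at 6 of the 29 events, and libraries of the first set at 0 of 29. Over all tested events the shares were 5.49% in the second set and 1.95% in the first. Median depth per event of the 6 genes was 180.0 and 122.0 reads in the first set against 38.0 and 45.0 in the second. Over all tested events it was 222.0 and 199.0 in the first set against 157.0 and 171.0 in the second. The part of the depth of these genes in the spread was not tested.

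All 6 genes had fewer junction reads in the second set. Reads were summed over each gene's events and scaled to 1000000 junction reads of the library (RPM), a level on the skipped exon events of a gene and not its expression, since overlapping events repeat reads. PTBP3 had 38.0 and 22.8 RPM in the first set against 3.73 and 4.83 in the second. MBNL1 had 38.8 and 22.9 in the first set against 4.53 and 4.78 in the second. In both genes every library of the first set exceeded every library of the second.

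PTBP1 had 581 and 531 RPM in the first set against 337 and 365 in the second. PTBP2 had 21.8 and 16.1 in the first set against 8.30 and 9.54 in the second. The lowest levels were those of MBNL2, at 3.42 and 1.36 against 0.676 and 0.637, and of MBNL3, at 2.64 and 1.2 against 0.397 and 0.341. The sets did not overlap in any of the 6 genes, as the plot of junction reads by gene shows. How many genes of the whole table did the same was not counted, and the median gene was itself higher in the first set (log2 difference 0.39).

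**Figure D3:**
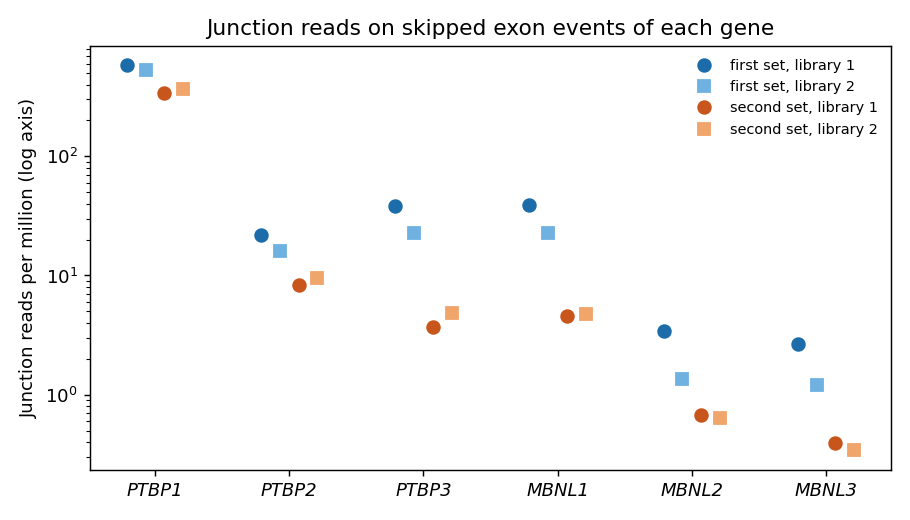
Junction RPM of each library, summed over the skipped exon events of each gene, on a log axis; blue marks are the first set and orange the second, circles library 1 and squares library 2. Each gene lies higher in both libraries of the first set, with the widest gaps in PTBP3 and MBNL1.

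Limma on log2 RPM, added after the data had been seen, called 6 of the 6 genes higher in the first set, where 40.9% of 10383 tested genes were called and 37.5% were called higher in the first set. The log2 difference was 2.79 ± 0.26 (SE) for PTBP3 (limma adjusted p = 1.72e-07) and 2.68 ± 0.25 for MBNL1 (adjusted p = 1.74e-07). It was 0.66 ± 0.11 for PTBP1, 1.07 ± 0.23 for PTBP2, 1.70 ± 0.56 for MBNL2 and 2.24 ± 0.63 for MBNL3 (limma adjusted p = 6.34e-05, 0.000800, 0.018 and 0.00649). The median gene was itself 0.39 higher in the first set. The 100 genes with the most junction reads took 31.7% and 34.1% of reads in the first set against 39.8% and 38.4% in the second, and the part of this in the gene differences was not tested. Relative to the median gene the differences were 2.40 for PTBP3, 2.29 for MBNL1, 1.85 for MBNL3, 1.31 for MBNL2, 0.68 for PTBP2 and 0.27 for PTBP1. PTBP3 and MBNL1 lay at least 4-fold above the median gene, as did 1.86% of genes. A larger difference than that of PTBP3 was found in 0.896% of genes, and than that of MBNL1 in 1.24%, as the histogram of gene differences shows.

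Of all calls, 91.7% were higher in the first set, and 61.4% with reads scaled to the upper quartile of genes; all 6 genes remained called and higher there, at adjusted p = 1.8e-05 to 0.0493. Without library 1 of the first set, MBNL2 (adjusted p = 0.467) and MBNL3 (adjusted p = 0.32) lost the call, and 1957 genes were called in place of 4245. In these bulk libraries, fewer cells of a kind and less RNA per cell cannot be told apart.

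**Figure D4:**
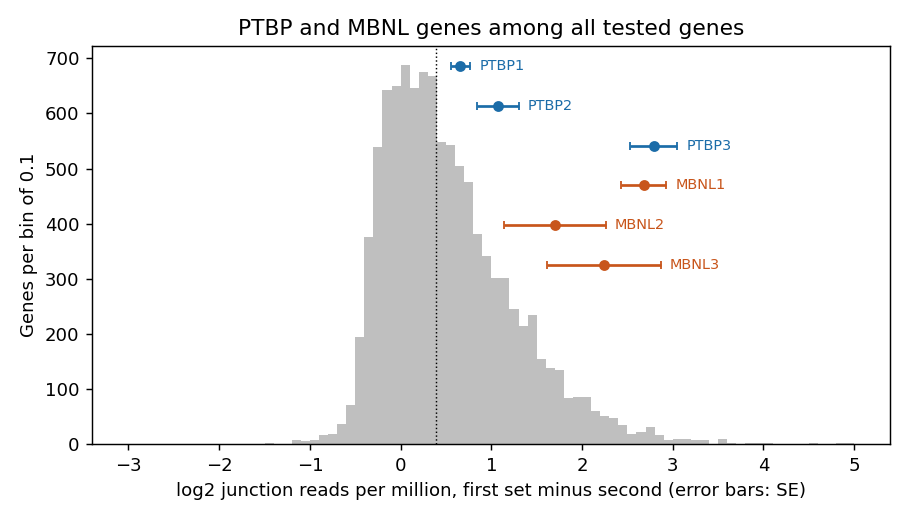
Histogram of the log2 difference in junction RPM (first set minus second) over 10383 genes, in bins of 0.1, with the 6 genes placed at their values and bars of 1 SE; the dotted line is the median gene at 0.39. PTBP3 (2.79) and MBNL1 (2.68) lie in the right tail and PTBP1 (0.66) near the centre.

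Genes whose proteins act with or against PTBP and MBNL proteins, and genes with exons that these proteins are known to regulate, were counted from lists. Of 14 partner and antagonist genes, such as RAVER1, MATR3, CELF1 and RBFOX2, 10 had tested events, and 0 of their 80 events were called. Of 17 known PTBP target genes, 16 had 124 tested events, of which 4 (3.23%) were called, 2 in each direction. Of 21 known MBNL target genes, 18 had 109 tested events, of which 2 (1.83%) were called, both higher in the first set. All 3 shares are to be read beside the 2.71% of all tested events, and the quasi-binomial test called 0 events in each list.

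Every tested event of a listed gene was counted, and whether a called exon is itself one that these proteins regulate was not checked. Among the PTBP target genes, 3 of the 4 calls were exons of GABBR1, a subunit of the GABA-B receptor. Its exon of 161 nt was at 1 and 1 in the first set against 0.852 and 0.771 in the second, from 71, 56, 50 and 31 reads (difference 0.189, FDR = 0.00248, in the authors' deposited table). Its exons of 94 and 128 nt went the other way, with differences of -0.114 (FDR = 0.0212) and -0.111 (FDR = 0.0316) in the authors' deposited table. The fourth was an exon of DLG4. With library 2 of the second set left out, 1 of the 4 calls remained.

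Among the MBNL target genes, counted in the same way, the calls were in ADD3, a membrane skeleton protein, and KIF13A, a kinesin motor. The ADD3 exon of 152 nt was at 0.981 and 0.967 in the first set against 0.797 and 0.926 in the second (difference 0.112, FDR = 0.025, in the authors' deposited table). The KIF13A exon of 39 nt was at 0.32 and 0.216 in the first set against 0.0734 and 0.0658 in the second (difference 0.199, FDR = 0.00679, in the authors' deposited table). The levels of the sets did not overlap at either exon.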

How the data were processed

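Reads were trimmed with cutadapt and aligned with STAR to hg19, per the submitters' processing notes; versions, the splicing program's version and the annotation are not given in the sources used here. The deposited table has the rMATS layout, per the file headers, and gives inclusion and skipping junction read counts and inclusion levels for 4 libraries, the authors' p-value and FDR per event, and the difference in level, a score from the authors. Levels recomputed from the reads were within 0.0005 of those deposited.

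The table joins the counts of 2 libraries in 1 cell, so its columns could not be recorded as plain counts, and the planned count model was not run. The cells were split, and a quasi-binomial model per event was the main test instead, with dispersion moderated by limma 3.58.1 (squeezeVar) in R 4.3.3 and never set under 1. Its dispersion prior was revised with the real counts in view: 10 forms were tried, and the one kept, a prior from events with an inclusion share of 0.05 to 0.95 and a trend on depth, was picked for its recovery on simulated data. A new draw of that simulation changed 200 of 54503 events by 0.3. The changed events were drawn only from those with an intermediate inclusion share, over all depths in the table. Recovery at the levels and depths of the PTBP and MBNL events was not measured. The model found 157 of the 200 changed events, with 7 false calls, under binomial noise. Under added scatter of 1 size per set, estimated from the real libraries, it found 117 with 0 false calls. That scatter was the same for both libraries of a set, so the wider scatter of library 2 of the second set was not simulated. Limma with precision weights found 49 under binomial noise and 0 under the added scatter. Limma on log2 RPM, the reads of a gene per 1000000 junction reads (pseudocount 0.5 reads) found 197 of 200 genes changed 4-fold among 10383 genes, with 10 false calls. Those genes were simulated with a fixed scatter that was not estimated from these libraries, and changes went either way. The shift of the median gene toward the first set was not simulated. All p-values were Benjamini-Hochberg adjusted over the whole table. Intervals of single levels are 95% Wilson intervals, which cover counting error only.

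Members and gene lists were chosen with earlier results of these data known. Values were named for events called, events with a mean level of 0.05 to 0.95, the exons of 34, 78, 36, 54 and 95 nt, and at most 3 called events per list. Alternatives were other read minimums, thresholds and tests, 1 event per exon, and leaving out each library.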

Additional observations from a re-analysis of the deposited data

How the results depend on the processing

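Over all tested events, 1477 of 54503 were called from the authors' table. This became 2026 of 58887 with a mean of at least 10 reads, 719 of 46167 with at least 50, and 2559 of 65601 with no read minimum. With 1 event per exon it was 1081. It was 2499 with a difference of at least 0.05, 525 with at least 0.2, and 748 with an FDR under 0.01. Without each library in turn it was 1002 to 1418. Of the 29 PTBP and MBNL events, 2 were called. This became 5 with a mean of at least 10 reads, 1 with at least 50, and 5 of 34 with no read minimum. It was 0 with an FDR under 0.01, 1 with 1 event per exon, and 1 with at least 10 reads in every library. Without each library in turn it was 1 to 2. These counts without a library apply only the difference again and keep the authors' FDR from all 4 libraries. The quasi-binomial test called 0 of all events (1450 at an unadjusted p under 0.05) and 0 of the PTBP and MBNL events (2 unadjusted). The 9 other forms of its dispersion, tried after the data had been seen, called 110 of all events with a robust prior, 10 with a trend on the expected variance, 3 with the deviance and that trend, and 0 with the other 6; each called 0 of the PTBP and MBNL events, with adjusted p of 0.0938 or above. Limma with precision weights called 358 and 2. Without each library in turn the quasi-binomial test called 0 of either. Limma on reads per gene called 4245 genes, 1957 to 4039 without each library in turn, and 6 of the PTBP and MBNL genes, 4 to 6 without each. Among 15 named events, 1 difference called by a test changed sign: that of the MBNL1 exon of 95 nt, called by limma with precision weights, ranged from -0.027 (without library 2 of the second set) to 0.232 (without its library 1). The called MBNL2 difference was 0.000 without library 2 of the second set. With a library left out, the lone library of its set is assumed to vary like the others. No paired analysis was possible because the table's columns do not carry the replicate numbers of the labels. The planned count models were not run. Depth on these genes was lower in the second set, and its part in the results was not tested. Their median reads per event were 38.0 and 45.0 there, where all tested events had medians of 157.0 and 171.0.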
